A study of Mus musculus with 12 samples.

Results

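The genes described here encode the cytosolic pathway that makes fatty acids from acetyl-CoA, together with its main transcriptional regulators. The members are Acly, Acaca, Acacb, Fasn, Elovl6, Scd1, Scd2, Srebf1, Mlxipl and Thrsp, chosen by name, and each was taken as the row of the array table with that gene symbol. All 10 members had exactly 1 row among the 22206 transcripts of the array, so no choice between rows was needed. They were measured in the M. gastrocnemius, a calf muscle, of adult male C57BL/6J mice that were 19 weeks old when the study began and 6.5 months old at sampling. The mice ate a semi-synthetic diet with 0.3% phosphorus (P0.3, adequate) or 1.2% phosphorus (P1.2, high) for 6 weeks. Potassium dihydrogen phosphate was the phosphorus salt of both diets, and their casein supplied phosphorus too. The extra potassium of the P1.2 diet was matched in the P0.3 diet with the bicarbonate salt. Each diet was fed to 12 mice, and RNA from 6 randomly selected mice of each group was put on Clariom S arrays, 1 array per mouse. Mice were housed in pairs, and the labels do not say which of the arrayed mice shared a cage.

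Fatty acid synthesis starts in the cytosol, where citrate that has left the mitochondria is cleaved to acetyl-CoA. Acetyl-CoA is carboxylated to malonyl-CoA, fatty acid synthase builds palmitate from both, and elongases and desaturases turn palmitate into longer and monounsaturated chains. The pathway is most active in the liver, in fat and in the lactating mammary gland, while skeletal muscle mainly oxidizes fatty acids and uses malonyl-CoA as a brake on their entry into mitochondria. Insulin acts on these genes through SREBP-1c, and glucose acts on them through ChREBP.

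The deposited signals on the log2 scale ran from 2.52 to 19.93. As a yardstick for dim transcripts served 6.11, the 95th percentile of the mean signals of 1455 transcripts of olfactory and vomeronasal receptors. All 7 skeletal muscle fibre markers listed, among them Ckm and Acta1, lay above that level, so the markers of the labelled tissue were present. A transcript was called higher or lower in P1.2 mice when its fold change was over 1.3 in size and its unadjusted limma p was under 0.05, which are the study's criteria with limma in place of its test. At these criteria 204 of the 22206 transcripts were higher and 303 were lower in P1.2 mice. After Benjamini-Hochberg adjustment 0 transcripts had an adjusted limma p under 0.05, with 722 at an unadjusted p under 0.05, and the methods' t-test also gave 0, with 810 unadjusted. Both unadjusted counts were below 1 in 20 of the 22206 transcripts, the share that this threshold gives on average when no transcript differs. Because the muscle pieces were analysed whole, fewer cells of a type and less RNA per cell cannot be told apart in any value that follows.

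Of the 10 members, 9 had a mean log2 signal above the receptor level of 6.11, and Elovl6, at 5.41, lay below it. The members differed more between mice than most transcripts did. The SD within the diets, on the log2 scale, had a median of 0.32 over the 11873 transcripts above the receptor level, and all 10 members exceeded it. Scd1 had an SD of 1.23, and 99.5% of those transcripts had a lower SD. Its lowest and highest array were 15.9-fold apart. Mlxipl followed with an SD of 0.62 (94.5% of transcripts lower), then Elovl6 with 0.49 and Fasn with 0.46. The SD of the other members lay between 0.35 for Acaca and 0.42 for Acacb.

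**Figure D1:**
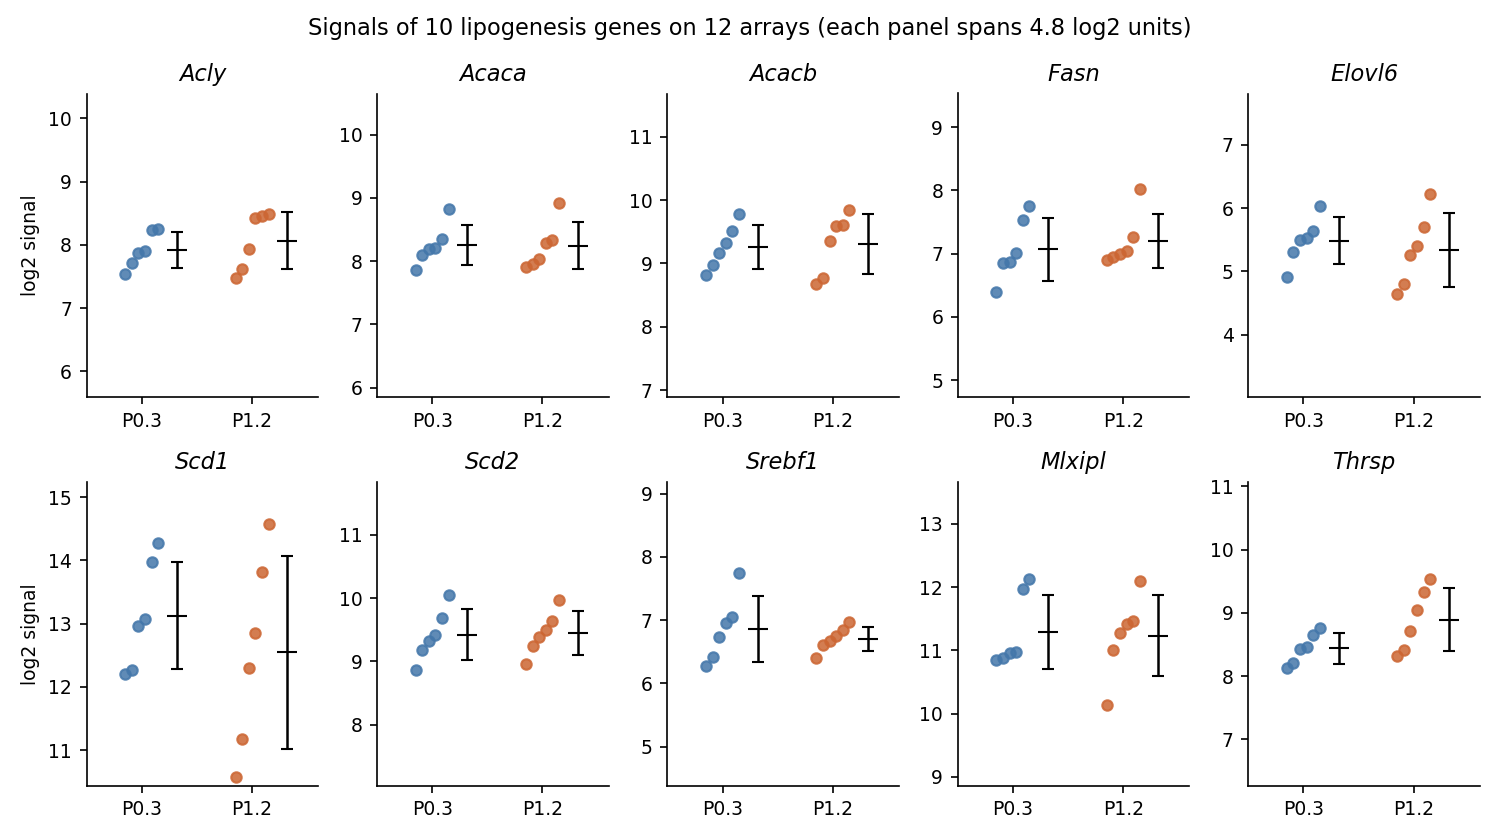
Log2 signal (vertical axis) of each of the 10 genes in P0.3 mice (blue) and P1.2 mice (orange), with 1 point per array ordered by value within a diet, and the mean with its SD beside the points (n = 6 per diet). All panels span the same number of log2 units, so the wide scatter of Scd1, from 10.58 to 14.57, can be compared with that of the other genes, and the diets overlap in every panel.

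In the P1.2 mice 1 of the 10 members was called higher, Thrsp, and 0 were called lower. Among all transcripts 0.919% were called higher, 1.36% lower and 2.28% in either direction. For 0 of the 10 members did the arrays of the 2 diets lie apart without overlap, which was so for 0.153% of all transcripts. The median log2 fold change (P1.2 minus P0.3) of the members was 0.00, and that of all transcripts was -0.01. The fold change was positive for 5 members and negative for 5. The standard errors ran from 0.19 for Acaca to 0.57 for Scd1, and the adjusted limma p was 0.9999 for each.

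**Figure D2:**
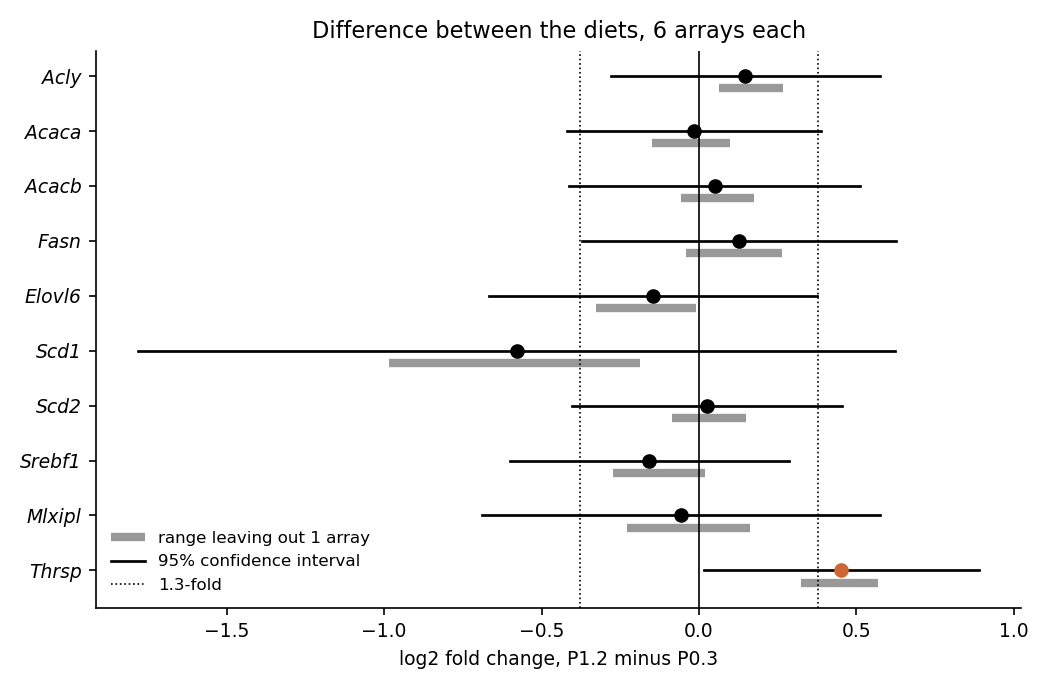
Log2 fold change of each gene, P1.2 minus P0.3 (horizontal axis), with the 95% confidence interval of limma (black line, n = 6 arrays per diet) and the range of fold changes when 1 array was left out (grey bar). Dotted lines mark a 1.3-fold difference. Thrsp (orange) at 0.45 is the gene whose interval, from 0.01 to 0.89, excludes 0, and Scd1 has the widest interval, from -1.78 to 0.62.

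Thrsp encodes Spot 14, a small nuclear and cytosolic protein that responds to thyroid hormone and carbohydrate and is found where fatty acids are made. In P0.3 mice its log2 signal had a lowest value of 8.13, a median of 8.45 and a highest of 8.77. In P1.2 mice the lowest value was 8.32, the median 8.88 and the highest 9.54. The P1.2 replicates 6 (9.54), 12 (9.34) and 2 (9.04) lay above all P0.3 arrays, while the other 3 P1.2 arrays lay within the range of the P0.3 group. The means were 8.44 ± 0.24 (SD, n = 6) and 8.89 ± 0.49 (SD, n = 6), a log2 fold change of 0.45 (standard error 0.21), or 1.37-fold with a 95% confidence interval of 1.01 to 1.85. The unadjusted limma p was 0.0436 and the adjusted p 0.9999. A two-sided exact permutation test over all ways to divide the 12 arrays into 6 and 6 gave p = 0.0801, and the smallest p this design allows is 0.0022. The methods' t-test missed its threshold as well (unadjusted p = 0.0726, against the exact p above). The log2 fold change stayed between 0.32 and 0.57 when 1 array was left out, but the limma p was 0.05 or more without 7 of the 12 arrays. These were the P0.3 replicates 1 (log2 fold change without it 0.46), 5 (0.39), 9 (0.45) and 11 (0.41) and the P1.2 replicates 2 (0.42), 6 (0.32) and 12 (0.36).

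The promoter of Thrsp is shown because it was the member called. RefSeq places the start of the gene on the minus strand of chromosome 7 (GRCm38.p6), and the window runs from 250 bases before the start to 50 after it, chr7:97417501-97417800. Capitals mark the CCAAT box, the site of the factor NF-Y, read on both strands (CCAAT or ATTGG).
Thrsp, minus strand, 5′ to 3′: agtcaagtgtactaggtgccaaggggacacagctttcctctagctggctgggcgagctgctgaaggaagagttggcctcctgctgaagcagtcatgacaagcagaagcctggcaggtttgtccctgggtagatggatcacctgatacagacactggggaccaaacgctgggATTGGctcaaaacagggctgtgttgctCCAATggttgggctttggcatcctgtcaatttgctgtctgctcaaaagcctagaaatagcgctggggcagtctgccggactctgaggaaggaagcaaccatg
Counted from the start, the box began at position -79 on the reverse strand and at -52 on the forward strand. CCAAT stood in 37.4% of all 32851 windows of this length.

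Acly encodes ATP citrate lyase, which cleaves citrate to acetyl-CoA in the cytosol. Its log2 signal had a lowest value of 7.54, a median of 7.89 and a highest of 8.25 in P0.3 mice, and 7.47, 8.18 and 8.48 in P1.2 mice. There, 3 P1.2 arrays stood above and 1 below the whole P0.3 range, and the log2 fold change was 0.15 (standard error 0.20, limma p = 0.478, two-sided exact permutation p = 0.504).

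Acaca and Acacb encode the acetyl-CoA carboxylases. ACC1, from Acaca, supplies malonyl-CoA for synthesis in the cytosol, and ACC2, from Acacb, sits at the mitochondrial membrane of muscle and heart, where its malonyl-CoA inhibits carnitine palmitoyltransferase. The log2 signal of Acaca had a lowest value of 7.87, a median of 8.20 and a highest of 8.82 in P0.3 mice, and 7.92, 8.17 and 8.92 in P1.2 mice. For Acacb the lowest, median and highest values were 8.82, 9.24 and 9.78 in P0.3 mice and 8.68, 9.48 and 9.85 in P1.2 mice. The diets overlapped for both genes. The difference in log2 signal was -0.01 for Acaca (95% confidence interval -0.42 to 0.39, limma p = 0.939, exact permutation p = 0.937), and its sign turned when arrays were centred on their medians. For Acacb it was 0.05 (95% confidence interval -0.41 to 0.51, limma p = 0.822, exact permutation p = 0.835).

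Fasn encodes fatty acid synthase. Its log2 signal in P0.3 mice had a lowest value of 6.39, a median of 6.94 and a highest of 7.75, and in P1.2 mice the values were 6.89, 7.02 and 8.03. P1.2 replicate 6 stood apart at 8.03, with the next P1.2 array at 7.26. The log2 fold change was 0.13 (standard error 0.24, 95% confidence interval -0.37 to 0.62, limma p = 0.601; two-sided exact permutation test, p = 0.641), and it was -0.04 without P1.2 replicate 6. The Fasn promoter is shown for the cluster of CCAAT boxes that it holds, with the boxes in capitals. It lies on the minus strand of chromosome 11 at chr11:120824498-120824797 (GRCm38.p6).
Fasn, minus strand, 5′ to 3′: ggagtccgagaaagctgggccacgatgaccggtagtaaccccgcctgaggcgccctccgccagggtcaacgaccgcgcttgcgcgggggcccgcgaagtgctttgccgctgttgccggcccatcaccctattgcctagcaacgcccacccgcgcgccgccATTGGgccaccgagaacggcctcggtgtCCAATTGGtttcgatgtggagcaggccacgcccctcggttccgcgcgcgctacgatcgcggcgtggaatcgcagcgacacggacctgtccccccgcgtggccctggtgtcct
One box began at position -90 on the reverse strand, and the pair that began at -62 on the forward and -59 on the reverse strand overlapped.

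Elovl6 encodes the elongase that lengthens palmitate to stearate, and Scd1 and Scd2 encode stearoyl-CoA desaturases, which introduce the double bond of oleate and palmitoleate. The log2 signal of Elovl6 was low, with a lowest value of 4.90, a median of 5.51 and a highest of 6.02 in P0.3 mice and 4.64, 5.33 and 6.23 in P1.2 mice. Its fold change on the log2 scale was -0.15 (standard error 0.25, limma p = 0.557, exact permutation p = 0.604).

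Scd1 varied far more than any other member. In P0.3 mice the lowest log2 signal was 12.21, the median 13.02 and the highest 14.28, and in P1.2 mice the lowest was 10.58, the median 12.57 and the highest 14.57. The P1.2 group thus held both the 2 lowest arrays, replicates 8 (10.58) and 10 (11.17), and the highest, replicate 6, with the P0.3 arrays between them. The means were 13.13 ± 0.85 (SD, n = 6) in P0.3 mice and 12.55 ± 1.52 (SD, n = 6) in P1.2 mice. The log2 fold change of -0.58 (standard error 0.57) had a 95% confidence interval from -1.78 to 0.62, with a limma p of 0.322 and p = 0.429 in the two-sided exact permutation test. Without 1 array it ranged from -0.98 (without P1.2 replicate 6) to -0.19 (without P1.2 replicate 8). With the mean of the adipocyte markers, described further on, as a covariate, the log2 fold change was -0.72 (standard error 0.24; limma, adjusted p = 0.9999), and Scd1 was called lower.

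Scd2, the desaturase form best known from brain, gave log2 signals with a lowest value of 8.87, a median of 9.37 and a highest of 10.05 in P0.3 mice and 8.95, 9.44 and 9.97 in P1.2 mice. No P1.2 array lay outside the P0.3 range. The difference was 0.02 (95% confidence interval -0.40 to 0.45, limma p = 0.906, exact permutation p = 0.909), and its sign turned under quantile normalization.

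Srebf1 encodes SREBP-1, which switches on most of the enzymes above. Its log2 signal had a lowest value of 6.28, a median of 6.84 and a highest of 7.75 in P0.3 mice and 6.41, 6.71 and 6.97 in P1.2 mice. All P1.2 arrays lay within the P0.3 range, and the difference was -0.16 (standard error 0.21, limma p = 0.461, exact permutation p = 0.563). P0.3 replicate 7 was the highest array, and without it the difference was 0.02.

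Mlxipl encodes ChREBP, the factor that responds to glucose and binds DNA together with Mlx. In P0.3 mice the lowest log2 signal was 10.85, the median 10.96 and the highest 12.13, and in P1.2 mice the lowest was 10.14, the median 11.34 and the highest 12.10. The P0.3 arrays fell into a tight set of 4 between 10.85 and 10.97 and a pair, replicates 11 (11.97) and 9 (12.13), about 1 log2 unit above it. The log2 fold change was -0.06 (standard error 0.30, 95% confidence interval -0.69 to 0.58, limma p = 0.851, exact permutation p = 0.848). Mlxipl has 2 starts in RefSeq, 17001 bases apart on the plus strand of chromosome 5, and the array gives 1 value for the gene, so transcripts from the 2 starts could not be separated. Both windows are shown, at chr5:135089640-135089939 and chr5:135106641-135106940 (GRCm38.p6), because they hold different motifs. In the upstream window capitals mark CCAAT (read here as ATTGG), the GC box GGGCGG to which Sp1 binds, and the E box CACGTG, to which ChREBP and SREBP-1 can bind. In the downstream window they mark TCACNCCAC, the core of a sterol regulatory element.
Mlxipl, upstream start, plus strand, 5′ to 3′: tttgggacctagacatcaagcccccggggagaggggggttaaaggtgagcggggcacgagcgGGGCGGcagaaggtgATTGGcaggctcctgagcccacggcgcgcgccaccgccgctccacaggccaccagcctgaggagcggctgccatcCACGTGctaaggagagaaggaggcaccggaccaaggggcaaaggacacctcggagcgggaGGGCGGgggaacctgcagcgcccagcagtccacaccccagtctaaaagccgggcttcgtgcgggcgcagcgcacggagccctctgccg
Mlxipl, downstream start, plus strand, 5′ to 3′: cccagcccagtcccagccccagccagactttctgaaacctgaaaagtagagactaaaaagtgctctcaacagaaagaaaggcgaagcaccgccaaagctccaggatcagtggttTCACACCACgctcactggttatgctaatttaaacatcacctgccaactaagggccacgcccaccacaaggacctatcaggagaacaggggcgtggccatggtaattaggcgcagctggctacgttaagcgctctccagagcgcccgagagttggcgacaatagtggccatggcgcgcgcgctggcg
In the upstream window the E box began at position -98, the GC boxes at -188 and -38, and the CCAAT box at -173 on the reverse strand. In the downstream window the sterol element core began at -136.

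RefSeq windows were matched for 8 of the 10 members, 11 windows in all, since Srebf1 has 3 and Mlxipl 2, and Scd1 and Scd2 were not matched. On either strand, CCAAT stood in 7 of the 11 windows (6 members), against 37.4% of all 32851 windows. GGGCGG stood in 4 windows of 3 members (35.7% of all windows), CACGTG in 1 (7.15%), TCACNCCAC in 1 (1.24%) and TATAAA, the TATA box, in 1 (13.6%), that of Acacb, where it began at position -34. These matches describe the letters only.

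The pairs of members differed in how closely they ran together from mouse to mouse. Over the 12 arrays, 31 of the 45 pairs of members had a Pearson's r above 0 and 14 below, with a median of 0.23. A permutation test with 100000 resamples gave an unadjusted p under 0.05 for 7 pairs, and after adjustment 0 of the 45 stayed under 0.05 (lowest adjusted p 0.209). The highest r was that of Scd1 and Elovl6 (r = 0.71, permutation p = 0.00957; Spearman's rho = 0.55, permutation p = 0.0706), which fell to 0.40 without the 2 arrays farthest from the median of Scd1. Acacb and Mlxipl followed (r = 0.69, rho = 0.68), and their r was 0.81 within P0.3 and 0.62 within P1.2. It was 0.69 without the 2 arrays farthest from the median of Acacb, which kept P0.3 replicates 9 and 11. These were the highest P0.3 arrays for both genes, and their slow fibre marker means, described further on, were 1.36 and 1.32. In P1.2 mice the highest slow fibre means were those of replicates 12 (1.47) and 2 (0.74). There Mlxipl was 12.10 and 11.42, and Acacb was 9.60 and 8.78, in a P1.2 range of 8.68 to 9.85. The part of fibre type in this pair was not tested. When deviations from the diet means were used, 1 of the 45 pairs had an adjusted permutation p under 0.05. This was Scd1 and Thrsp, with r = 0.90 (adjusted permutation p = 0.0063), against 0.60 for the signals themselves. The r of this pair was 0.57 within P0.3 and 0.99 within P1.2. After regression of the signals on the mean of the adipocyte markers it was -0.01, while that of Acacb and Mlxipl was 0.77.

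**Figure D3:**
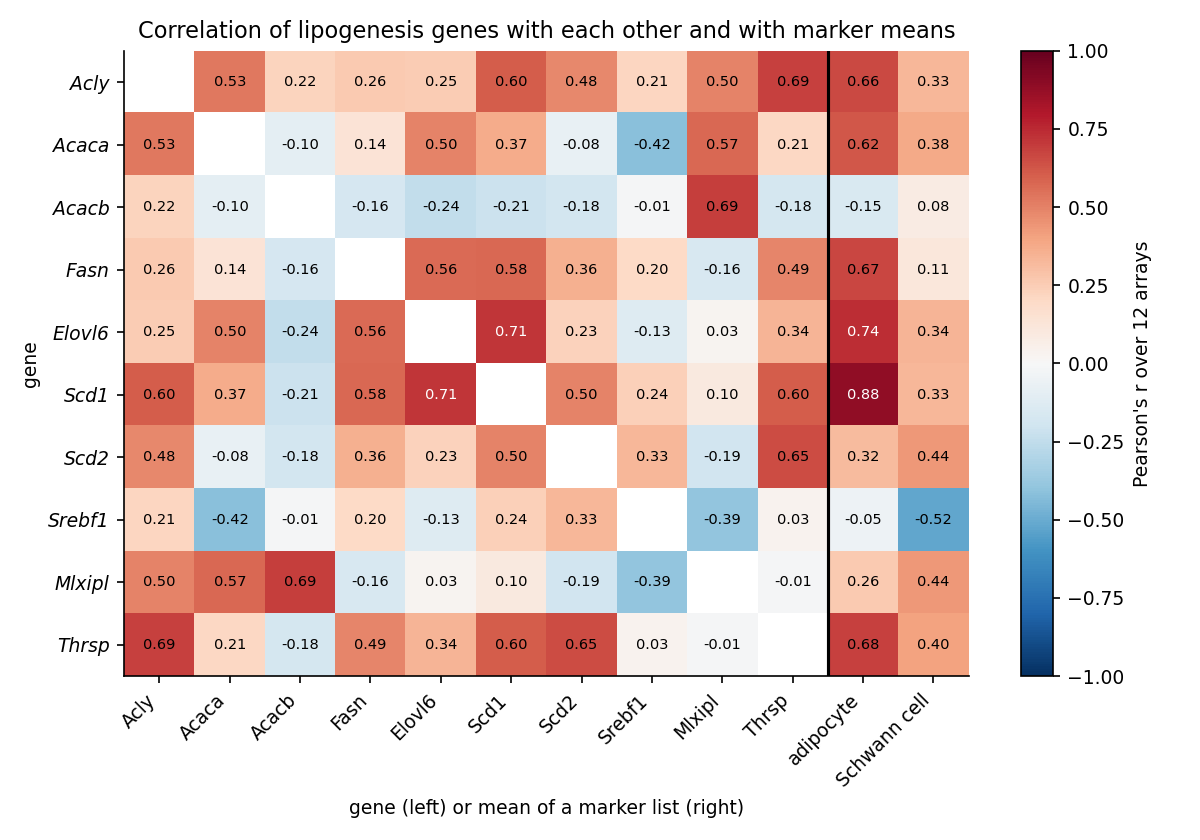
Pearson's r over 12 arrays between the log2 signals of each gene (vertical axis) and those of the other genes or the mean of a list of cell type markers (horizontal axis, right of the line), coloured from -1 (blue) to 1 (red). The adipocyte column holds the highest r of Scd1 (0.88) and Elovl6 (0.74), and Acacb has its highest r with Mlxipl (0.69).

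Fat cells make fatty acids and express these enzymes strongly, and pieces of muscle can hold some. The 10 adipocyte markers were Adipoq, Fabp4, Plin1, Cfd, Retn, Cidec, Lep, Pparg, Lipe and Pck1, of which 8 had a mean signal above the receptor level and Plin1 and Lep did not. The mean of the markers, each scaled to its SD, ranged from -0.60 to 0.86 in P0.3 mice and from -0.86 to 1.17 in P1.2 mice, so it overlapped between the diets. The markers did not all move together. On P0.3 replicate 11 Cfd (5.52) and Plin1 (4.35) had their lowest log2 signals of all arrays, while Pparg had its highest (7.87). Of the list 0 markers were called higher in P1.2 mice and 1, the leptin gene Lep, was called lower. The log2 signal of Lep was 5.74 ± 0.30 (SD, n = 6) in P0.3 mice and 5.19 ± 0.26 (SD, n = 6) in P1.2 mice, a log2 fold change of -0.55 (standard error 0.17, unadjusted limma p = 0.00399, adjusted p = 0.9999, exact permutation p = 0.00866). The adipokine genes Cfd (0.76, standard error 0.51) and Retn (0.40, standard error 0.49) had positive log2 fold changes that did not pass the test. Those of the other 7 markers lay between -0.04 for Pparg and 0.27 for Lipe, with Adipoq at 0.05, Fabp4 at 0.01, Plin1 at 0.06, Cidec at 0.22 and Pck1 at 0.05.

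The signals of several members ran with the adipocyte markers. In all 30 relations were computed, between the 10 members and the means of the adipocyte, slow fibre and Schwann cell markers. Of those with the adipocyte mean, the relations of Scd1 and Elovl6 had a permutation p under 0.05 after adjustment over all 30. For Scd1 r was 0.88 (permutation p = 9.0e-05, adjusted p = 0.0027) and Spearman's rho 0.86 (permutation p = 0.00069). It was 0.83 without P0.3 replicate 9 and P1.2 replicate 6, the 2 arrays farthest from the median, 0.84 within P0.3 and 0.98 within P1.2. For Elovl6 r was 0.74 (permutation p = 0.006, adjusted p = 0.045) and rho 0.69 (permutation p = 0.0148), but r was 0.49 (permutation p = 0.148) without those 2 arrays. Within P0.3 it was 0.74 (exact permutation p = 0.0944, n = 6) and within P1.2 0.78 (exact permutation p = 0.0708, n = 6), each with 1 of those 2 arrays.

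For Thrsp r with the adipocyte mean was 0.68 (permutation p = 0.0142, adjusted p = 0.0829 over the 30) and rho 0.61 (permutation p = 0.0404), and r was 0.72 without the 2 farthest arrays. Within P1.2 it was 0.99 (exact permutation p = 0.00278, n = 6) and within P0.3 0.17 (exact permutation p = 0.747, n = 6). The 3 P1.2 arrays with the highest Thrsp, replicates 6, 12 and 2, were also those with the highest adipocyte mean in that diet, at 1.17, 0.70 and 0.40. On these 3 arrays the mean of 5 macrophage markers was 1.25, 1.19 and -0.27. On P1.2 replicates 8 and 10, the lowest for Scd1, the macrophage mean was 0.29 and -1.32. Its relations with the members were not computed. With the adipocyte mean as a covariate the log2 fold change of Thrsp was 0.42 (standard error 0.16; limma, adjusted p = 0.9999), and Thrsp was called higher. This fit takes the same slope on the adipocyte mean in both diets, although r differed between them (0.17 and 0.99). The part of fat cells or macrophages in the signals of Thrsp and Scd1 was not tested.

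The relations of the other members with the adipocyte mean were weaker. For Fasn r was 0.67 (permutation p = 0.0166, adjusted p = 0.0829) and rho 0.48. It was 0.89 within P0.3 and 0.53 within P1.2, both with 1 of the 2 farthest arrays, and 0.27 without these 2 arrays, so the relation over all arrays rested on them. For Acly r was 0.66 and rho 0.47, and for Acaca 0.62 and 0.64, with adjusted permutation p of 0.0984 and 0.116. Scd2 (0.32), Mlxipl (0.26), Srebf1 (-0.05) and Acacb (-0.15) had adjusted p of 0.457 or more in the permutation test. None of the 10 members had an adjusted p under 0.05 with the mean of the 8 Schwann cell markers, where r ranged from -0.52 for Srebf1 to 0.44 for Scd2. The highest r with this mean within P1.2 were 0.93 for Acly, 0.91 for Thrsp and 0.88 for Scd1. Their exact permutation p were 0.0333, 0.0222 and 0.0319, and each was 0.111 after adjustment over the 10 members. The lowest r within P1.2 was -0.16 for Srebf1. For Acly, Thrsp and Scd1 r within P0.3 was -0.18, 0.21 and -0.24. Of the 8 Schwann cell markers 1 had a mean signal above the receptor level.

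**Figure D4:**
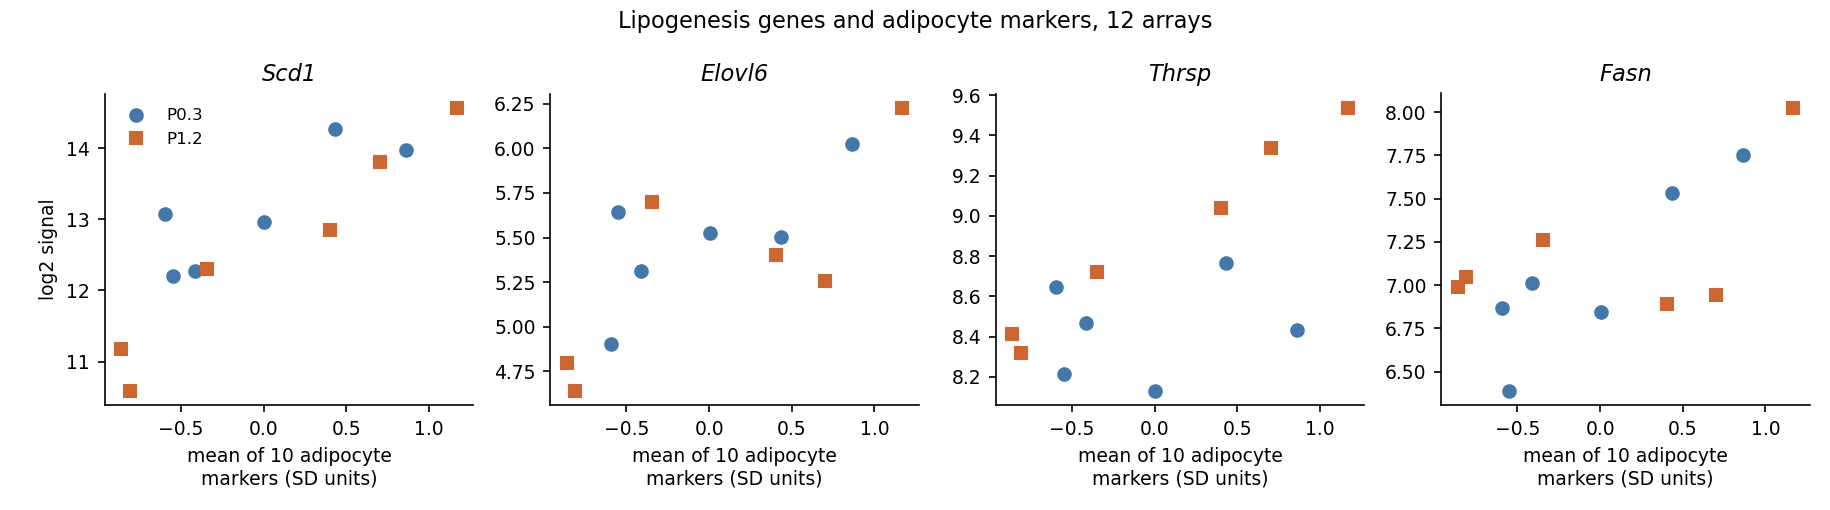
Log2 signal of Scd1, Elovl6, Thrsp and Fasn (vertical axes, which differ in range) against the mean of 10 adipocyte markers in units of their SD (horizontal axis), with 1 point per array, P0.3 as blue circles and P1.2 as orange squares. The P1.2 arrays of Thrsp lie near a line (r = 0.99), which the P0.3 arrays do not follow (r = 0.17), while Scd1 follows the markers in both diets (0.84 and 0.98).

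The gastrocnemius is a mixed muscle with a slow, red portion, and the arrays differed in slow fibre genes within each diet. The mean of 9 slow fibre markers, among them Myh7 and Tnni1, fell into separate sets, with 8 arrays at -0.09 or below and 4 at 0.74 or above. The 4 were P1.2 replicate 2 (0.74), P0.3 replicate 11 (1.32), P0.3 replicate 9 (1.36) and P1.2 replicate 12 (1.47), so each diet held the same number of them. The log2 signals of Mlxipl on these arrays were 11.42, 11.97, 12.13 and 12.10, while those of the other 8 ran from 10.14 to 11.47. For Acaca they were 8.92, 8.36, 8.82 and 8.34, while the other 8 ran from 7.87 to 8.29. Over all 12 arrays the relations of Mlxipl and Acaca with the slow fibre mean passed after adjustment over the 30 (adjusted permutation p = 0.0051 and 0.045). Since the arrays form 2 sets, no r over all of them is given, and r was computed within the 8 lower arrays, where it was 0.32 for Mlxipl (permutation p = 0.474) and 0.58 for Acaca (permutation p = 0.133). The part of fibre type in these signals was not tested.

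**Figure D5:**
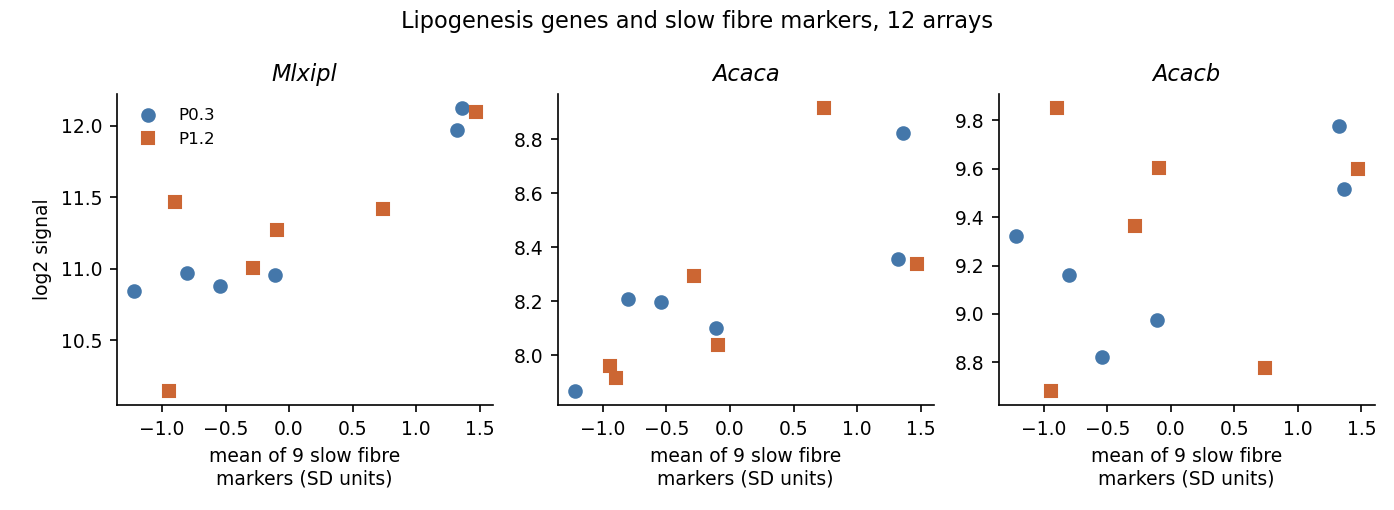
Log2 signal of Mlxipl, Acaca and Acacb (vertical axes, which differ in range) against the mean of 9 slow fibre markers in units of their SD (horizontal axis), with 1 point per array, P0.3 as blue circles and P1.2 as orange squares. The 4 arrays on the right, from 0.74 to 1.47, come from both diets and hold the highest Acaca signals, and 3 of them the highest Mlxipl signals.

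For each member the 3 most similar of 11871 named transcripts above the receptor level were sought, by Pearson's r of the deviations from the diet means over 12 arrays. For Scd1 they were Retn (r = 0.95), which encodes the adipokine resistin, the transferrin gene Trf (0.92) and Thrsp (0.90). For Thrsp they were Retn (0.93), Kctd12 (0.92) and Pamr1 (0.90). Retn, itself a member of the adipocyte list, was thus the closest transcript to both. For Mlxipl they were the autophagy gene Gabarapl1 (0.98), Epas1, which encodes the hypoxia-inducible factor HIF-2 alpha (0.96), and the respiratory complex I gene Ndufb7 (0.96). Acaca was closest to the junction gene Jam2 (0.95), the AMP deaminase gene Ampd3 (0.94) and Dhrs4 (0.94). Acacb was closest to the exonuclease gene Trex1 (0.95), Gm561 (0.95) and the calcium channel subunit gene Cacnb1 (0.94). All these r span the 8 arrays of lower and the 4 of higher slow fibre mean, and similarity within either set was not computed.

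The most similar transcripts of the other members came from a variety of genes. Fasn was closest to the ribosomal protein gene Rpl13a (0.87), Dhx38 (0.87) and Cstf1 (0.84). Acly was closest to the integrin gene Itga9 (0.91), the fibrillin gene Fbn1 (0.88) and the tubulin gene Tuba1b (0.88). Scd2 was closest to the macrophage scavenger receptor gene Msr1 (0.93), Dgka (0.86) and Tusc3 (0.84). Srebf1 was closest to Ppp2r3d (0.86), Cachd1 (0.85) and Cenpo (0.84), and Elovl6 to Sdhaf2 (0.96), Nob1 (0.94) and Stt3a (0.92). These values describe the 12 arrays and carry no test.

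Around the members, 36 further genes of the pathway were listed, of which 35 were matched to a row, and 27 of these lay above the receptor level. They cover the supply of acetyl-CoA and NADPH (8 genes), other elongases and desaturases (11), the regulators of SREBP-1 and ChREBP (9) and those of acetyl-CoA carboxylase and malonyl-CoA (7). At the criteria above 0 of the 35 were called higher and 0 lower, beside 0.919% and 1.36% of all transcripts. The median log2 fold change of the 35 was 0.01, with 18 above 0 and 17 below. One gene, Fads2, had an unadjusted limma p under 0.05. It encodes the desaturase that begins the synthesis of long-chain polyunsaturated fatty acids. Its log2 signal was 7.79 ± 0.19 (SD, n = 6) in P0.3 mice and 7.41 ± 0.26 (SD, n = 6) in P1.2 mice, a difference of -0.38 (standard error 0.15, limma p = 0.0214, adjusted p = 0.9999; two-sided exact permutation test, p = 0.0173). At 1.299-fold it missed the 1.3-fold threshold, and it was called lower under several of the alternative settings, among them quantile normalization (-0.40). The arrays of the diets overlapped.

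In the other roles the gene with the lowest p did not pass. Tkt, the transketolase gene of the pentose phosphate pathway that yields NADPH, showed a difference of 0.41 on the log2 scale (standard error 0.20, limma p = 0.0597, exact permutation p = 0.0952), with a mean signal of 5.53, below the receptor level. It passed the criteria when arrays were centred on their medians (a difference of 0.44). Mlycd, which encodes malonyl-CoA decarboxylase, the enzyme that removes malonyl-CoA, showed one of 0.35 (standard error 0.24, limma p = 0.154, exact permutation p = 0.221). For Mlx, the partner of ChREBP, it was 0.15 (standard error 0.15, limma p = 0.314, exact permutation p = 0.247).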

How the data were processed

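Total RNA of muscle pieces was labelled with the WT PLUS kit and hybridized to GeneChip Clariom S mouse arrays. The authors summarized the probes of each transcript to log2 signals by GCCN-SST-RMA in Expression Console (version 1.4), and the deposited table of these log2 signals was used without further normalization. Its columns of the authors' own comparison, their group means, log2 ratio, signed fold change score and unadjusted p-value of Student's test, were deposited too and were not used. A second deposited table, the same signals rounded (largest difference 0.005), served as an alternative. All value columns belong to a known sample (0 do not). The labels give the diet, and no cage, batch or pairing.

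P1.2 was compared with P0.3 by limma (version 3.58.1, R version 4.3.3; lmFit and eBayes) over all 22206 transcripts, 6 arrays per diet, with Benjamini-Hochberg adjustment. The limma fit and its calls were tested on simulated data in which each transcript varied independently. The permutation tests, correlations and covariate fits were not tested in this way. For single genes a two-sided exact permutation test was run, and correlations were tested with 100000 resamples, or exactly within a diet. Correlations and permutations were computed in scipy 1.17.1 with numpy 2.4.6, tables handled in pandas 2.3.3 (Python 3.11.15) and plots drawn in matplotlib 3.10.9. Marker means are means of the markers' signals, each centred and scaled to its SD over 12 arrays.

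The text names all members, the adipocyte markers, of the pathway list each gene with an unadjusted limma p under 0.05 and the gene of lowest p in each role, and the 3 transcripts most like each member. Members, lists and rules were chosen with earlier results of these data known. Promoter windows came from RefSeq (GRCm38.p6). The genome build of the array annotation is not given in the sources used here, so no array coordinates are printed. No counts lie behind array values, so precision is limited by the number of arrays.

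Alternatives were the methods' t-test, a robust and trended prior, array weights, quantile normalization, centring on medians, the rounded table, filters on dim transcripts, marker means as covariates and leaving out each array. The counts of the pathway list under these settings, the r within the 8 arrays of lower slow fibre mean and the alternatives for the slow fibre and Schwann cell means were added after the data were seen.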

Additional observations from a re-analysis of the deposited data

Results flagged for a closer look

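In 48 sets of 6 arrays (24 genes in each diet, the members among them), the highest or lowest array was checked for a gap to its neighbour that is wide against the range of the group. The gap passed Dixon's 95% limit in 2 sets, where a rate of 1 in 20 gives 2.4. Fasn had its highest P1.2 signal on replicate 6 at 8.03, with the next array at 7.26. The adipocyte marker Pck1 had its highest P0.3 signal on replicate 9 at 7.16, with the next array at 6.48. These were also the arrays with the highest adipocyte marker mean in their diet, at 1.17 and 0.86. Pck1 is itself part of that mean, so for Pck1 the match is partly built in.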

How the results depend on the processing

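Thrsp was higher in P1.2 mice under all 23 alternatives, but its call was lost under 10 of them. With the methods' t-test, array weights and quantile normalization 0 members were called, its log2 fold change being 0.45, 0.41 and 0.42, and without 1 array 0 to 1 were. With the adipocyte marker mean as a covariate 2 were called, Thrsp higher and Scd1 lower. Among all 22206 transcripts 208 were called higher and 314 lower with this covariate. The direction of several small differences was not settled. That of Acaca was 0.0432 with array weights, 0.0146 with arrays centred on their medians and 0.0017 with the Schwann cell mean as a covariate, and -0.15 to 0.10 without 1 array. That of Scd2 was -0.0034 with array weights and -0.01 under quantile normalization, and -0.086 to 0.15 without 1 array. Without 1 array that of Fasn ran from -0.0407 to 0.26, of Acacb from -0.0581 to 0.18, of Srebf1 from -0.27 to 0.0191 and of Mlxipl from -0.23 to 0.16. Acly, Scd1 and Elovl6 kept their direction under every alternative that gave a value.

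Of the 35 genes of the pathway list 2 were called with array weights, 1 under quantile normalization, 1 with centred arrays, 2 with the adipocyte mean as a covariate, and 0 to 2 without 1 array. Of all 22206 transcripts the first 4 of these settings called 642, 453, 490 and 522. Among all transcripts 507 were called, against 170 when those below the receptor level were left out, 144 when those below the median signal were, and 487 to 801 without 1 array (801 without P1.2 replicate 4). The split of higher and lower calls was 204 to 303 as deposited, 240 to 213 under quantile normalization and 287 to 203 with centred arrays, and 104 to 66 and 98 to 46 under the filters at the receptor level and at the median.

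Of the relations of the 10 members with the adipocyte mean, 5 passed when adjusted over these 10 (2 over all 30), 1 by Spearman's rho, 1 without the 2 farthest arrays, 0 within P0.3, 2 within P1.2 and 6 with deviations from the diet means. Of the 45 pairs of members 0 passed, and 1 with deviations from the diet means. The cause of these changes was not tested.

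No paired analysis was run because the labels give no pairing of the mice. The second highest row of a symbol was not run because each member has 1 row, and Elovl6 has no value under the filters. With 6 arrays per diet, the intervals of 9 members include 0 and reach past 1.3-fold on at least 1 side.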
